A study of Homo sapiens with 9 samples.

Results

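The 10 genes described here encode the machinery that cuts proteins into peptides and delivers the peptides to MHC class I molecules: the immunoproteasome subunits PSMB8, PSMB9 and PSMB10, the proteasome activator subunits PSME1 and PSME2, the peptide transporter subunits TAP1 and TAP2, the loading factor TAPBP, and the trimming peptidases ERAP1 and ERAP2. They were taken by gene name, as all probes of the array that carry one of the 10 symbols. They are 10 of the 43395 genes on the arrays and 10 of the 20106 genes whose signal could be tested. Of their 15 probes, 12 were bright enough to be tested, 3 for TAPBP and 1 for each of the other genes.

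T47D is an established line of human breast cancer cells of luminal epithelial type, and its RNA was measured in 3 stably transfected lines with 3 single-color arrays per line, 9 in all. T47D-PA6 cells carry a fragment that covers the whole of PTH-AS, a long noncoding RNA transcribed downstream of the parathyroid hormone gene. T47D-PA5 cells carry a fragment that lacks part of the 5′ side of PTH-AS and served as a second control, and T47D-VC1 cells carry the empty vector. All 3 lines were made with the pTARGET vector and selected with G418, and each is a single selected clone, so that differences between clones and differences between inserts cannot be told apart. The level of PTH-AS itself was not analysed here.

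In cells, the proteasome degrades proteins through 3 catalytic subunits of its core. Interferons induce replacement subunits (PSMB8 in the place of PSMB5, PSMB9 in that of PSMB6, PSMB10 in that of PSMB7) and the PSME1–PSME2 cap, which together change the peptides produced. The TAP1–TAP2 transporter moves these peptides into the endoplasmic reticulum, where ERAP1 and ERAP2 trim their amino-terminal ends and TAPBP, also called tapasin, holds empty class I molecules beside the transporter. Epithelial cells carry mostly the constitutive proteasome, whereas immune cells carry the immunoproteasome at rest.

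Between 44.0% and 48.0% of probes were well above background on an array, no spot was saturated, and each line rests on 3 arrays. The arrays of replicate 1 of every line shared a slide that was scanned in an earlier run, and the other 6 arrays lay on 2 further slides. The median absolute difference between arrays of a line was 0.21 to 0.27 (log2) with replicate 1 and 0.09 to 0.11 between replicates 2 and 3. The labels do not state whether replicates were separate cultures, so the p-values measure the spread between arrays, which may be technical. All 9 markers of luminal epithelium were well above background on every array, including ESR1, GATA3 and EPCAM, and PGR, the progesterone receptor gene, fell by 1.07 ± 0.17 (log2, SE; adjusted p = 0.00724, limma) between T47D-VC1 and T47D-PA6. Of 5 fibroblast markers 1 or 2 were well above background on an array, and of 4 endothelium markers 2 were. The fibroblast marker that could be tested, COL1A1, fell by 0.50 ± 0.10 (adjusted p = 0.0198, limma) in T47D-PA6 over T47D-VC1. Of 7 leukocyte markers, 5 were found by name on the arrays, CD68 and LYZ were not analysed here, and CD3E, CD3G and MS4A1 stayed near background on all 9 arrays. The others, PTPRC and CD14, were well above background on every array. The summed signal of the 5 markers was 74.4 to 90.7 in T47D-VC1, 136 to 166 in T47D-PA5 and 135 to 246 in T47D-PA6, and CD14 rose in T47D-PA6 by 1.80 ± 0.29 (log2, SE; adjusted p = 0.00821, limma). PTPRC, the general leukocyte marker CD45, was at −0.17 ± 0.26 in the same comparison (adjusted p = 0.733). The part of these values in the results below was not tested.

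At the probe read, all 10 genes had their lowest mean signal in T47D-VC1, an intermediate one in T47D-PA5 and their highest in T47D-PA6. The share of all genes in this order was not counted. For TAPBP the means of T47D-PA5 and T47D-PA6 were close, at 8858 and 8965. Another tested TAPBP probe was lowest in T47D-PA6, at 128, beside 134 in T47D-VC1 and 138 in T47D-PA5. Against T47D-VC1, 9 of 10 were called higher in T47D-PA6 (limma with Benjamini-Hochberg adjustment over all genes tested, adjusted p under 0.05), against a background of 4.69% of all genes tested, and 0 were called lower. The gene not called was TAPBP, which did not reach an unadjusted p under 0.05 either. In T47D-PA5 compared with T47D-VC1, 1 of 10, PSMB9, was called higher, against 1.37% of all genes. In T47D-PA6 compared with T47D-PA5, 5 of 10 were called higher (PSMB8, PSMB9, PSME1, TAP1 and TAP2), against 3.65%. Their median change (log2) was 0.89, 0.42 and 0.39 in these comparisons, beside −0.03, −0.03 and −0.00 for all genes. The first 2 comparisons share the T47D-VC1 arrays, and T47D-PA6 and T47D-PA5 each enter 2 comparisons. In RNA of a whole culture, more RNA in every cell and more cells that express a gene cannot be told apart.

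**Figure D1:**
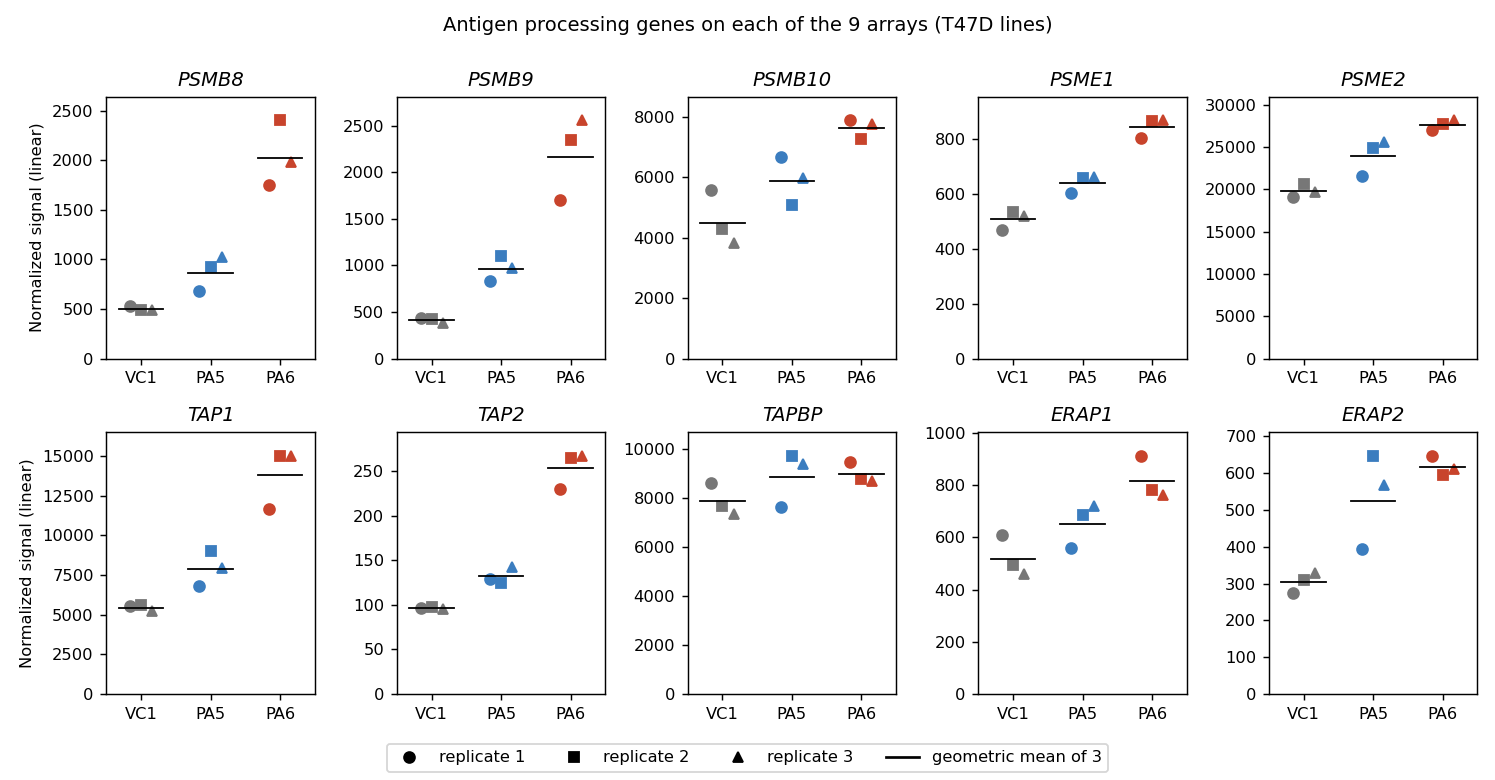
Quantile-normalized signal (linear axis from 0, 1 axis per gene) of the probe read for each of the 10 genes on each of the 9 arrays. Marker shape gives the replicate and the black bar the geometric mean of 3 arrays. For PSMB8, PSMB9, PSME1, PSME2, TAP1 and TAP2 the 3 lines occupy separate ranges in the order T47D-VC1, T47D-PA5, T47D-PA6.

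By the definition in the study's methods, a mean ratio over 2 to T47D-VC1, 5 of the 10 genes were upregulated in T47D-PA6 (PSMB8, PSMB9, TAP1, TAP2 and ERAP2), beside 3.47% of all genes, and 1 (PSMB9) in T47D-PA5, beside 2.17%. Every T47D-PA6 array lay above every T47D-VC1 array for 10 of 10 genes (13.1% of all genes did so), every T47D-PA5 array above every T47D-VC1 array for 7 (11.2%), and every T47D-PA6 array above every T47D-PA5 array for 8 (14.3%).

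The start regions of the 10 genes were read from RefSeq (GRCh38.p14), as windows of 250 bases before to 50 bases after each listed start site, 14 windows in all. On either strand they were searched for the core of the interferon-stimulated response element, GAAANNGAAA, and for the core of the gamma-activated sequence, TTCNNNGAA, which are patterns known from interferon-responsive promoters. The first was present in 9 of the 10 genes, in 9 of 14 windows, beside 4.38% of 27305 genes and 3.57% of their 35116 windows. The second was present in 2 of the 10 genes (PSMB8 and TAP1), in 2 of 14 windows, beside 9.38% of all genes and 7.66% of all windows. A match is a description of the letters and does not show binding. PSMB9 was the gene without either core in its own window. Its start site lies 488 bases from that of TAP1, and the genes run in opposite directions, so that both copies of the first core upstream of TAP1 lie 354 and 360 bases before the PSMB9 start site.

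The sequences run from 150 bases before to 20 bases after the start site, written 5′ to 3′ on the strand of the gene, with capitals for both cores. TAP1 (chr6:32853685-32853854, minus strand) is shown because its window lies between TAP1 and PSMB9. PSMB8 (chr6:32844028-32844197, minus strand) carries both cores, TAP2 (chr6:32838720-32838889, minus strand) is the other transporter gene, PSME2 (chr14:24146591-24146760, minus strand) had the smallest change among the genes called, and TAPBP (chr6:33314059-33314228, minus strand) was not called.
TAP1: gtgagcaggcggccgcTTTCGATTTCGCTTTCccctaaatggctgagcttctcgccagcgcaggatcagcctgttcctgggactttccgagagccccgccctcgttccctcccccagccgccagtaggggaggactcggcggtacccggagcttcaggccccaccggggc
PSMB8: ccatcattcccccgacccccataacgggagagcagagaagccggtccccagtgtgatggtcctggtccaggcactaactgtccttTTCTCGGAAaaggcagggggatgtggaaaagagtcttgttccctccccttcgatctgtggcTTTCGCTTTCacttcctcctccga
TAP2: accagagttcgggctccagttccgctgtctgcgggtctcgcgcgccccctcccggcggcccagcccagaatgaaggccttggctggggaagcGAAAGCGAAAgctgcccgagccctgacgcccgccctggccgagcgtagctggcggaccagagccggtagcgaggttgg
PSME2: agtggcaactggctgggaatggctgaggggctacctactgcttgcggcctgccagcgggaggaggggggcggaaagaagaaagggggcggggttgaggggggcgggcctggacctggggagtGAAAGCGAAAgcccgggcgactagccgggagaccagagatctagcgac
TAPBP: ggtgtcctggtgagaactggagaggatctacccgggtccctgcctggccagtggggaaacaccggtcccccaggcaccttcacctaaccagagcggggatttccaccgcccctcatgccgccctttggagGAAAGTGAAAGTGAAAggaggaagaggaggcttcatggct

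The start region of TAP1 holds overlapping copies of the first core, as does that of TAPBP. TAPBP thus carries the pattern close to its start site and is the 1 gene of the 10 that was not called. In PSMB8, TAP2 and PSME2 a single copy begins at −4, −58 and −28, counted from the start site.

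PSMB9 and PSMB8 showed the largest changes of the 10 genes. PSMB9, which replaces PSMB6, gave signals of 434, 427 and 376 on the T47D-VC1 arrays, 828, 1103 and 976 on the T47D-PA5 arrays, and 1703, 2345 and 2559 on the T47D-PA6 arrays (replicates 1 to 3; probe at chr6:32823918-32823977, hg19). No array of a line overlapped those of another. PSMB9 rose by 2.40 ± 0.17 (log2, SE; 5.27-fold, adjusted p = 0.000369, limma) in T47D-PA6 and by 1.23 ± 0.17 (2.34-fold, adjusted p = 0.0141) in T47D-PA5, both against T47D-VC1. It ranked 143rd of all genes tested by its change in T47D-PA6. Between T47D-PA6 and T47D-PA5 it rose by 1.17 ± 0.17 (adjusted p = 0.00656).

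PSMB8, which replaces PSMB5, had signals of 527, 487 and 486 in T47D-VC1, 683, 925 and 1023 in T47D-PA5, and 1749, 2404 and 1987 in T47D-PA6 (probe spanning chr6:32810023-32810490, hg19, 468 bases of the genome). The 3 lines were again separate, and the lowest T47D-PA6 array was well clear of the highest T47D-PA5 array. PSMB8 rose 4.06-fold in T47D-PA6 over T47D-VC1 (log2 2.02 ± 0.17, adjusted p = 0.000605, limma) and 2.35-fold over T47D-PA5 (1.23 ± 0.17, adjusted p = 0.00567). In T47D-PA5 over T47D-VC1 the value was 0.79 ± 0.17 (adjusted p = 0.0645), with replicate 1 the lowest T47D-PA5 array.

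PSMB10, the third replacement subunit and the counterpart of PSMB7, behaved less uniformly. Its signals were 5564, 4288 and 3806 in T47D-VC1, 6666, 5092 and 5953 in T47D-PA5, and 7872, 7258 and 7746 in T47D-PA6 (probe at chr16:67968412-67968471, hg19). T47D-VC1 replicate 1 lay above T47D-PA5 replicate 2, whereas all T47D-PA6 arrays were above all others. PSMB10 rose in T47D-PA6 over T47D-VC1 by 0.76 ± 0.16 (1.70-fold, adjusted p = 0.0221, limma). Neither T47D-PA5 over T47D-VC1 (0.38 ± 0.16, adjusted p = 0.290) nor T47D-PA6 over T47D-PA5 (0.38 ± 0.16, adjusted p = 0.185) passed the threshold.

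**Figure D2:**
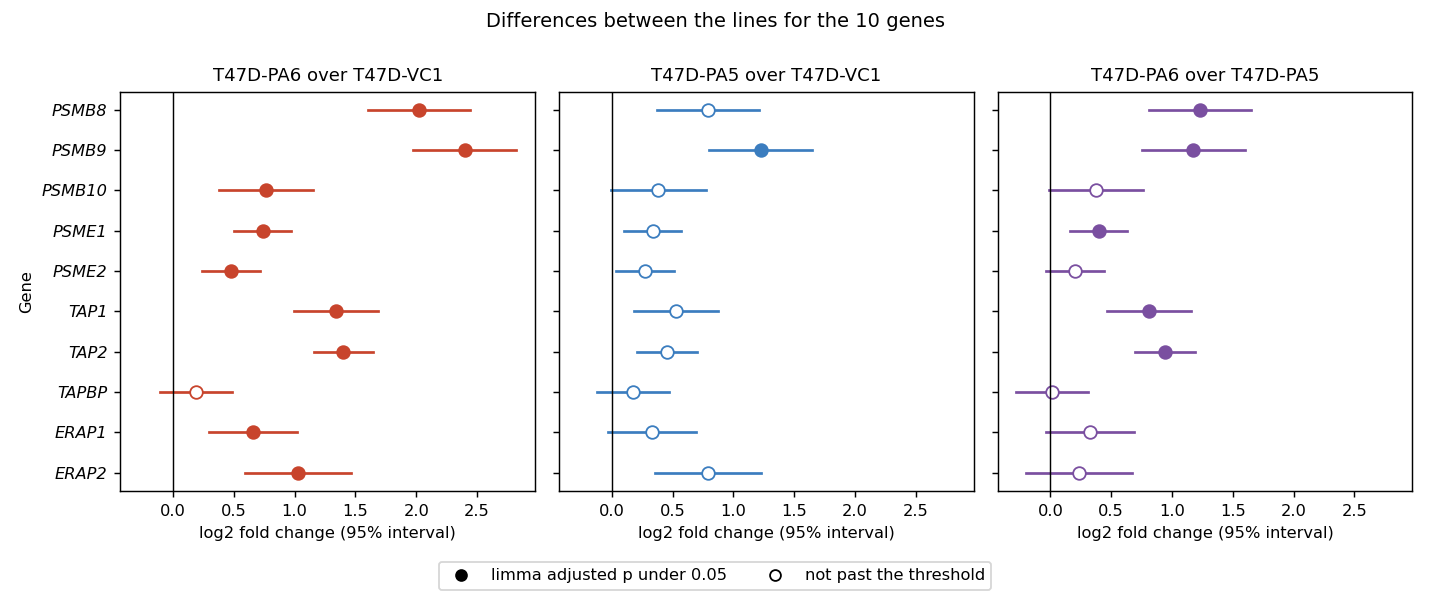
Log2 fold change of each of the 10 genes with its 95% interval (limma, 9 arrays) in the 3 comparisons. Filled points passed an adjusted p of 0.05: 9 in T47D-PA6 over T47D-VC1, 1 in T47D-PA5 over T47D-VC1 and 5 in T47D-PA6 over T47D-PA5, with all points to the right of 0.

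The constitutive subunits in the same places did not rise. PSMB5 differed by −0.07 ± 0.10 and PSMB6 by −0.07 ± 0.09 (log2, SE) in T47D-PA6 over T47D-VC1, with adjusted p of 0.707 and 0.698 (limma), and PSMB7 fell by 0.55 ± 0.09 (adjusted p = 0.0101). The ratio of each replacement subunit to its constitutive counterpart was therefore followed on each array, which shows unequal change of the 2 signals and not the relative amounts of the 2 RNAs. Relative to its T47D-VC1 mean, the PSMB8 to PSMB5 ratio was 3.53, 5.27 and 4.19 on the T47D-PA6 arrays and 1.27, 1.97 and 2.18 on the T47D-PA5 arrays. For PSMB9 to PSMB6 the values were 4.43, 5.76 and 6.61 in T47D-PA6 and 2.13, 3.01 and 2.74 in T47D-PA5. The PSMB10 to PSMB7 ratio was 2.47, 2.53 and 2.47 in T47D-PA6 and 1.60, 1.31 and 1.52 in T47D-PA5.

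All T47D-PA6 ratios were above all ratios of the other lines in each pair. Compared with T47D-VC1, the mean ratio in T47D-PA6 was 4.27-fold, 5.53-fold and 2.49-fold higher for the 3 pairs in this order, each with a two-sided exact permutation p of 0.1, the smallest that 3 arrays against 3 can give. In T47D-PA5 over T47D-VC1 the ratios were 1.76-fold, 2.60-fold and 1.47-fold higher, with exact permutation p of 0.1, 0.1 and 0.2. These 9 comparisons cannot reach 0.05 with this number of arrays. T47D-VC1 replicate 1 was the highest T47D-VC1 array for PSMB10 to PSMB7, at 1.31, and the others were at 0.945 and 0.806.

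**Figure D3:**
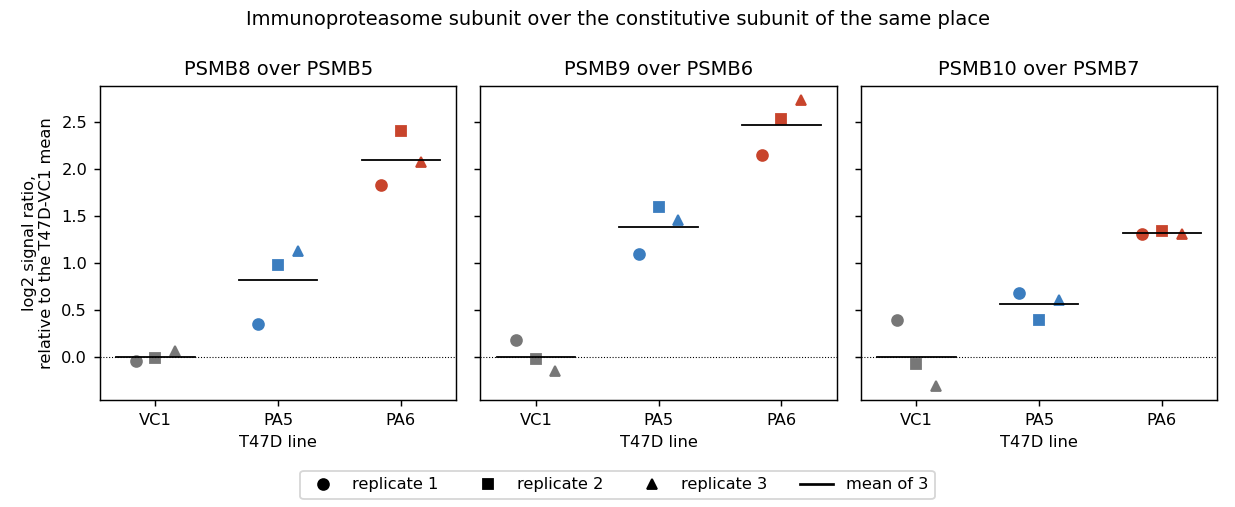
Log2 ratio of the signal of each replacement subunit to that of the constitutive subunit of the same place, on each array, with the mean of T47D-VC1 set to 0. Points are arrays and bars are means of 3; the T47D-PA6 points stand above all others in each panel.

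The activator subunits moved less. PSME1 had signals of 471, 533 and 521 in T47D-VC1, 604, 660 and 663 in T47D-PA5, and 804, 867 and 869 in T47D-PA6 (probe spanning chr14:24606378-24606552, hg19). PSME2, which forms the ring with it, had 19115, 20665 and 19674, then 21571, 24879 and 25638, then 26989, 27752 and 28134 in the same order (probe at chr14:24612577-24612636, hg19). For both genes the 3 lines did not overlap, and the steps were small. PSME1 rose by 0.74 ± 0.10 (log2, SE; 1.67-fold, adjusted p = 0.00329, limma) in T47D-PA6 over T47D-VC1 and by 0.40 ± 0.10 (adjusted p = 0.0356) over T47D-PA5. The PSME1 call over T47D-PA5 was lost under 10 alternatives, among them the 75th percentile shift (adjusted p = 0.0974, limma). PSME2 rose by 0.48 ± 0.10 (1.39-fold, adjusted p = 0.0207) over T47D-VC1, the smallest change of the 9 genes called. Over T47D-PA5 its value was 0.20 ± 0.10 (adjusted p = 0.239). PSME3, which encodes the nuclear activator of another kind, fell in T47D-PA6 over T47D-VC1 by 0.44 ± 0.11 (adjusted p = 0.0425).

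The transporter genes rose together in T47D-PA6. TAP1 gave 5537, 5577 and 5223 in T47D-VC1, 6783, 9005 and 7928 in T47D-PA5, and 11645, 15000 and 14959 in T47D-PA6 (probe at chr6:32813210-32813269, hg19). TAP2 gave 95.9, 97.2 and 95.2, then 129, 125 and 143, then 231, 265 and 267 (probe at chr6:32793222-32793281, hg19). The lines were separate for both genes, with the T47D-VC1 arrays of TAP2 within 2 units of each other. TAP1 rose 2.53-fold (log2 1.34 ± 0.14, adjusted p = 0.00140, limma) and TAP2 2.64-fold (1.40 ± 0.10, adjusted p = 0.000369) over T47D-VC1. Over T47D-PA5 they rose by 0.81 ± 0.14 (adjusted p = 0.0111) and 0.94 ± 0.10 (adjusted p = 0.00232). In T47D-PA5 over T47D-VC1 the values were 0.53 ± 0.14 (adjusted p = 0.118) and 0.46 ± 0.10 (adjusted p = 0.0668). A further TAP2 probe did not rise well above background on the 9 arrays, so TAP2 rests on a single probe.

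TAPBP, which bridges TAP and the class I molecule, stood at 8626, 7659 and 7356 in T47D-VC1, 7636, 9719 and 9366 in T47D-PA5, and 9454, 8757 and 8703 in T47D-PA6 (probe at chr6:33267718-33267777, hg19). The T47D-PA6 arrays lay above the T47D-VC1 arrays by a narrow margin, and the T47D-PA5 arrays overlapped both. The difference between T47D-PA6 and T47D-VC1 was 0.19 ± 0.12 (log2, SE; 95% interval −0.11 to 0.49, adjusted p = 0.365, limma). The same comparison gave 0.23 ± 0.14 and −0.07 ± 0.12 for the other tested TAPBP probes, neither of which passed the threshold. With replicates 2 and 3 alone TAPBP was called higher in T47D-PA6 over T47D-VC1, by 0.22 ± 0.058 (adjusted p = 0.0388, limma). In that setting 3460 of all 20106 genes tested were called higher and 4009 lower. Its homolog TAPBPL, a peptide editor, had a value of 1.26 ± 0.74 (adjusted p = 0.324), an error larger than that of any of the 10 genes.

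The trimming peptidases differed in their pattern. ERAP2 had 273, 311 and 328 in T47D-VC1, 394, 647 and 567 in T47D-PA5, and 647, 596 and 611 in T47D-PA6 (probe at chr5:96253257-96253316, hg19). T47D-PA5 replicates 2 and 3 lay at the level of T47D-PA6 or near it, and T47D-PA5 replicate 1 lay between the other lines. ERAP2 rose 2.04-fold in T47D-PA6 over T47D-VC1 (log2 1.03 ± 0.18, adjusted p = 0.0110, limma). Its value was 0.79 ± 0.18 (adjusted p = 0.0689) in T47D-PA5 over T47D-VC1 and 0.23 ± 0.18 (95% interval −0.20 to 0.67, adjusted p = 0.464) in T47D-PA6 over T47D-PA5.

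ERAP1 had 608, 496 and 460 in T47D-VC1, 559, 685 and 719 in T47D-PA5, and 913, 783 and 764 in T47D-PA6 (probe at chr5:96110216-96110275, hg19). T47D-PA5 replicate 1 fell within the range of T47D-VC1. ERAP1 rose 1.58-fold in T47D-PA6 over T47D-VC1 (log2 0.66 ± 0.15, adjusted p = 0.0286, limma), and neither other comparison passed the threshold. A further ERAP1 probe stayed near background on all 9 arrays.

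The differences between T47D-PA5 and T47D-VC1 varied between slides. The slide of replicate 1 was also the earlier scan run, so slide, run and replicate number cannot be told apart there. On the slide of replicate 1, T47D-PA5 was above T47D-VC1 for 8 of 10 genes, with ERAP1 at −0.12 and TAPBP at −0.18 (log2), and on each of the other slides for 10 of 10. PSMB9 differed between T47D-PA5 and T47D-VC1 by 0.93 on slide 1, 1.37 on slide 2 and 1.37 on slide 3. With replicates 2 and 3 alone, which come from 1 scan run, 10 of 10 genes were called higher in T47D-PA5, against 11.7% of all genes. T47D-PA6 was above T47D-VC1 for 10 of 10 genes on both slides that hold the pair, from 0.13 (TAPBP) to 1.97 (PSMB9) on slide 1 and from 0.25 to 2.70 on slide 3. Compared with T47D-PA5 it was above for 10 of 10 on slide 1 and for 9 of 10 on slide 3, where TAPBP was at −0.10. The share of all genes above 0 was not counted by slide, so these slide counts have no background here. In the fit to all 9 arrays that share was 45.6% in T47D-PA6 and 45.3% in T47D-PA5, both over T47D-VC1. It was 49.9% in T47D-PA6 over T47D-PA5. With slide as a block the counts called were again 9, 1 and 5. Leaving out T47D-VC1 replicate 3, T47D-PA6 replicate 2 or T47D-PA6 replicate 3 reduced the 9 genes called in T47D-PA6 over T47D-VC1 to 6. The genes lost in each case were PSMB10, PSME2 and ERAP1. The number called higher over all genes tested fell too, from 943 to 420, 435 and 395 in this order. PSMB9 was no longer called in T47D-PA5 without T47D-VC1 replicate 3, T47D-PA5 replicate 2 or T47D-PA5 replicate 3 (adjusted p = 0.0726, 0.0642 and 0.0714, limma). That left 0 genes called, with 6, 7 and 6 at an unadjusted p under 0.05, a level at which all genes were not counted. Over all genes 82, 89 and 75 were then called higher, against 275 with every array. Without T47D-PA5 replicate 1 or T47D-PA6 replicate 1 the count in T47D-PA5 over T47D-VC1 was 3, beside 322 and 476 of all genes. In T47D-PA6 over T47D-PA5 the count was 3 without T47D-PA6 replicate 2 or 3, beside 244 and 242 of all genes, against 734 with every array.

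Other genes of the pathway were counted in lists in T47D-PA6 over T47D-VC1, where 4.69% of all genes tested were called higher and 5.34% lower. These shares are at an adjusted p under 0.05. The shares of all genes at an unadjusted p under 0.05 were not counted, so list counts at that level have no background here. Proteasome genes other than the replacement subunits, PSME1 and PSME2 showed few calls, none of them higher. Of 11 other subunits of the 20S core 0 were called in either direction by limma (0 higher and 1 lower at an unadjusted p under 0.05), with values from −0.24 to 0.29 and a median of −0.05, although a second, dimmer PSMA1 probe fell by 1.01 ± 0.16 (adjusted p = 0.00746 over all probes) where the probe read for PSMA1 gave −0.11 ± 0.09. PSMB4 fell over T47D-PA5 by 0.60 ± 0.10 (adjusted p = 0.00898, limma). Of 18 subunits of the 19S cap 0 rose, also at an unadjusted p under 0.05, 6 were lower at that level, and 2 fell, the ATPase gene PSMC5 by 0.49 ± 0.09 (log2, SE; adjusted p = 0.0148, limma) and the ubiquitin receptor gene PSMD4 by 0.39 ± 0.08 (adjusted p = 0.0243), and the list's median was −0.18. Of 7 other activators and assembly factors 0 rose, also at an unadjusted p under 0.05, and 1, PSME3, fell, the same number as were lower without adjustment.

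Downstream of the transporter, the class I chains moved with the 10 genes. Of 6 chains 5 rose in T47D-PA6 over T47D-VC1, with a median of 1.26, and 4 of 6 rose over T47D-PA5. HLA-F rose by 2.11 ± 0.32 (adjusted p = 0.00665, limma) and HLA-G by 1.78 ± 0.26 (adjusted p = 0.00585). B2M, the light chain shared by class I molecules, rose by 1.41 ± 0.31 (adjusted p = 0.0276), and HLA-E, read from the brighter of its probes, was at −0.01 ± 0.24 (adjusted p = 0.985). Its dimmer probe disagreed and rose by 1.66 ± 0.22 (adjusted p = 0.00334 over all probes), so the level of HLA-E is uncertain here. The class I heavy chain genes are close in sequence, so their probes may share signal. Of the 4 loading chaperones and editor (CALR, CANX, PDIA3 and TAPBPL) 0 were called by limma, also at an unadjusted p under 0.05. The probes read for the first 3 were between 0.08 and 0.19. Dimmer probes of CANX and PDIA3 were at −0.27 ± 0.16 and −0.26 ± 0.13, neither of them called. Over T47D-PA5 the dimmer PDIA3 probe fell by 0.78 ± 0.13 (adjusted p = 0.00922 over all probes). The PDIA3 probe read was at −0.41 ± 0.14 there (adjusted p = 0.115, limma).

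Among 7 cytosolic and endosomal peptidases only LAP3, an aminopeptidase, was called in T47D-PA6 over T47D-VC1, at 1.49 ± 0.25 (adjusted p = 0.00961, limma). NPEPPS, the puromycin-sensitive aminopeptidase, fell over T47D-PA5 by 0.64 ± 0.15 (adjusted p = 0.0332). Over T47D-VC1 the probe read for NPEPPS gave −0.39 ± 0.15 (adjusted p = 0.139, limma). Its dimmer probes gave −0.62 ± 0.17 and −0.57 ± 0.17 (adjusted p = 0.0488 and 0.0642 over all probes), so its call there depends on the probe. Of 5 class I regulators, 2 rose over T47D-VC1. The interferon-induced factor IRF1 rose by 1.48 ± 0.24 (adjusted p = 0.00901) and NLRC5, the class I transactivator, by 0.68 ± 0.17 (adjusted p = 0.0431), with 3.09 ± 0.34 at a dimmer probe (adjusted p = 0.00177 over all probes). RFXAP, a subunit of the RFX complex, fell by 0.50 ± 0.11 (adjusted p = 0.0299).

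**Figure D4:**
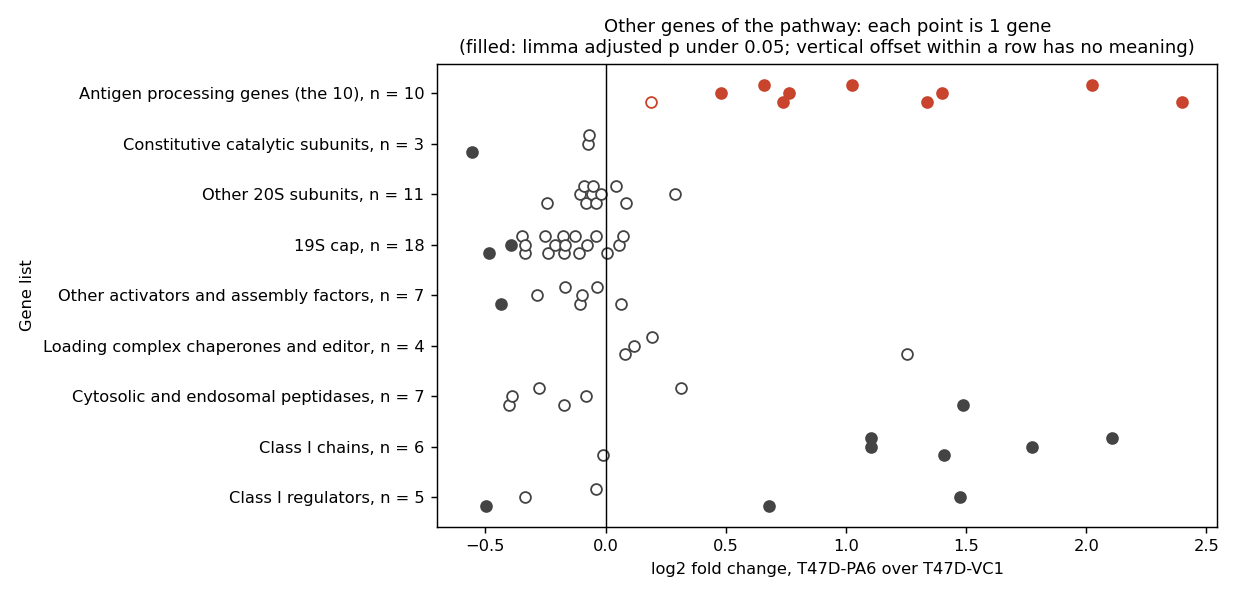
Change (log2) of each tested gene between T47D-VC1 and T47D-PA6, by list, with 1 point per gene and filled points for an adjusted p under 0.05 (limma). The 10 genes and the class I chains lie mainly to the right of 0, and the 20S core and the 19S cap lie near or left of 0.

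The 10 genes lie in 5 places in the genome, and the nearest tested protein-coding genes on each side were read too. TAP2, PSMB8, TAP1 and PSMB9 are neighbours in the class II region of chromosome 6. Beside them HLA-DQB2 rose by 1.49 ± 0.34 (log2, SE; adjusted p = 0.0299, limma) and HLA-DMB by 1.38 ± 0.33 (adjusted p = 0.0352) in T47D-PA6 over T47D-VC1, whereas HLA-DOB (0.68 ± 0.23) and HLA-DMA (0.59 ± 0.21) did not pass the threshold. HLA-DQB2 was also called higher in T47D-PA5 over T47D-VC1, at 1.84 ± 0.34 (adjusted p = 0.0374, limma). In T47D-PA6 over T47D-PA5, HLA-DQB2 and HLA-DOB were at −0.35 ± 0.34 and −0.11 ± 0.23. HLA-DMB and HLA-DMA were at 0.95 ± 0.33 and 0.11 ± 0.21 there, and none of these genes was called. On chromosome 14, EMC9 lies between PSME1 and PSME2 and had 0.33 ± 0.14 (adjusted p = 0.183). Beyond PSME2, RNF31, a subunit of the linear ubiquitin ligase, rose by 0.69 ± 0.12 (adjusted p = 0.0110), and IRF9, a component of the interferon-activated transcription complex, rose by 3.16 ± 0.25 (adjusted p = 0.000504). On the other side DCAF11 and PCK2 were at 0.07 and −0.32 and were not called.

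The other neighbours were not called in T47D-PA6 over T47D-VC1. Beside PSMB10, EDC4, PSKH1, LCAT and SLC12A4 lay between −0.16 and 0.22. Beside ERAP1 and ERAP2, ELL2, CAST, LNPEP and RIOK2 lay between −0.09 and 0.31. Beside TAPBP, PFDN6, RGL2, ZBTB22 and DAXX lay between −0.15 and 0.09.

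**Figure D5:**
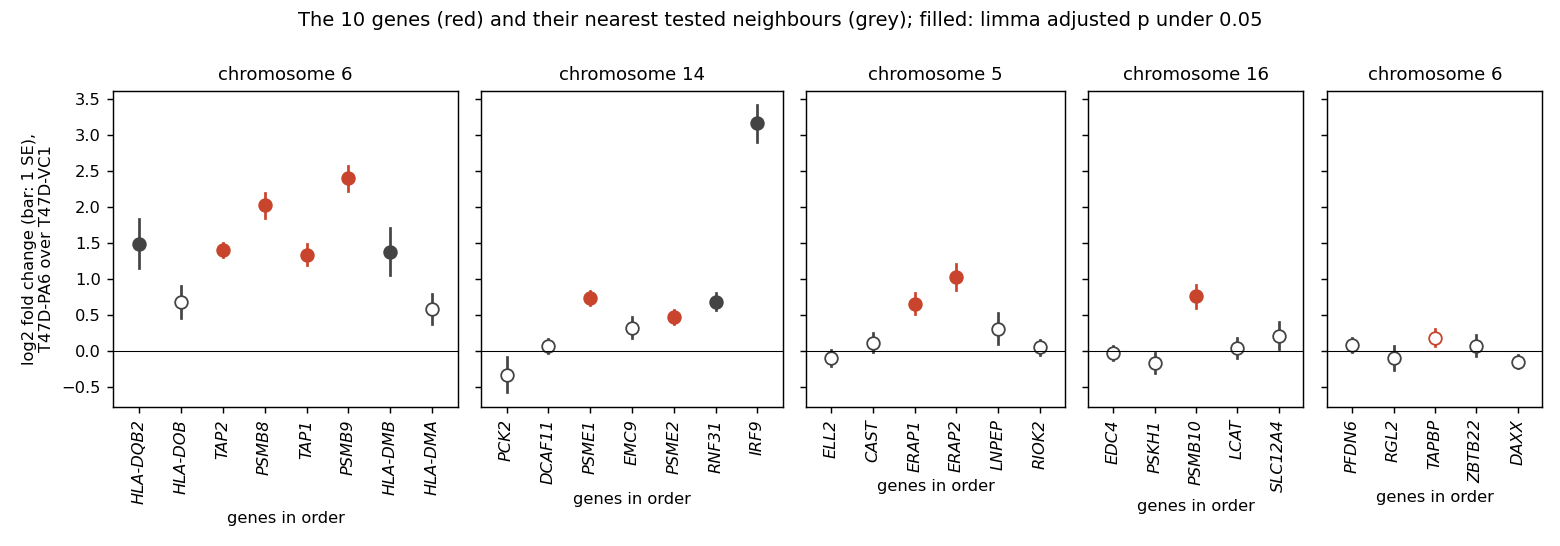
Change (log2) between T47D-VC1 and T47D-PA6 with 1 SE (limma) for the 10 genes (red) and their nearest tested neighbours (grey), in genomic order within each panel; spacing is not to scale. PSMB10, ERAP1 and ERAP2 were called with no called neighbour, and IRF9 has the largest value shown.

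For each of the 10 genes, the other genes with the most similar pattern over the 9 arrays were taken from 18225 genes well above background on every array. The 9 arrays come from 3 lines, so a high coefficient describes a shared order of lines as much as a shared spread within them. PARP12 was the gene most like PSMB8 (Pearson r = 0.99), with IFITM4P also at 0.99, and COXFA4L3, SMIM1 and IFIT5 were most like PSMB9 (0.99 each). TAP1 was matched by HERC5, IFITM3 and IFIH1 (0.99 each) and TAP2 by LAMP3, USP18 and SLC15A3 (0.99 each). PSME1 had PLSCR1 and IGF2BP2 (0.995 each), and PSME2 had IFI6 and OAS2 (0.993 each). ERAP1 had UBA7 and IFI35 (0.98 each) and LMTK3 (0.97), PSMB10 had PSD (0.99), LINC00926 (0.98) and IL15 (0.97), and ERAP2 had lnc-GRHL2-1 (0.98), CLSTN1 and TRANK1 (0.97 each). Several of these are textbook interferon-induced genes, among them IFIT5, HERC5, IFITM3, IFIH1, USP18, IFI6, OAS2 and IFI35. TAPBP was matched by ARHGEF25 (0.96), MIDN and TRERF1 (0.95 each).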

How the data were processed

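RNA of 3 T47D lines was hybridized to Agilent SurePrint G3 v3 human expression arrays, 3 per line. The authors deposited, for each spot, a background-subtracted intensity from Feature Extraction, not normalized between arrays, and a table of intensities they had quantile-normalized; the labels name version 9.5.1.1 and the file headers 10.7.1.1. Probe positions in the files are hg19.

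Here 62976 spots per array were read, 60901 of them not controls, for 58201 probes. Spots marked as outliers (46 to 117 per array) were left out, spots of a probe averaged on the log2 scale, and arrays quantile-normalized. A probe was tested if the software flagged it as well above background throughout the arrays of some line, which left 26171. The lowest signal so flagged was 9.59 to 15.2. For a gene with several tested probes the brightest on average was used, giving 20106 genes. Symbols were updated with RefSeq symbols (31127 probes by symbol, 3343 by accession, 496 by synonym; 23235 kept the name in the files). The lines were compared with limma 3.58.1 (lmFit and eBayes) in R 4.3.3, in 1 fit over 9 arrays with 6 residual degrees of freedom and Benjamini-Hochberg adjustment over all genes, at 0.05. Files were read with data.table (version 1.17.8). Ratios of 2 subunits were compared with an exact permutation test. The fit was tested on simulated data.

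The genes, lists and tests were chosen with earlier results of these data known. Named are all 10 genes, the 3 constitutive catalytic subunits, up to 3 called genes of each list by size of change in T47D-PA6 over T47D-VC1, up to 4 neighbours of each place, IRF9, and the 3 genes most like each of the 10, with unnamed transcripts left out. Results for some genes are not reported here, and their lists are counted without them. Values given for other genes were chosen after they were seen. Alternatives were a 75th percentile shift, normexp with an offset of 50, the authors' table, other filters on dim probes, slide and replicate number as blocks, each array left out, replicates 2 and 3 or replicate 1 alone, an intensity trend, the methods' unpaired test, a fit to the compared lines, and other ways to read a gene's probes.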

Additional observations from a re-analysis of the deposited data

How the results depend on the processing

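The number of genes called over the whole array also changed with the setting, and is given beside the counts. In T47D-PA6 over T47D-VC1, 7 to 9 of 10 genes were called under every tested alternative that kept all replicates. With replicates 2 and 3 alone 10 of 10 were called. With 1 array left out, 6 to 9 were called. Of all 20106 genes, 943 were called higher in the main fit and 3460 with replicates 2 and 3 alone. The methods' t-test called 237, and fits with 1 array left out 395 to 1274. In T47D-PA5 over T47D-VC1 (1 gene called) the count was 2 with normexp, 3 with an intensity trend and 10 with replicates 2 and 3 alone. It was 0 with the methods' t-test after Benjamini-Hochberg adjustment (7 at an unadjusted p under 0.05), and 0 to 3 with 1 array left out. Over all genes 275 were called higher in the main fit, and 334, 393, 2352 and 31 in these 4 settings in turn. With 1 array left out it was 75 to 476. In T47D-PA6 over T47D-PA5 (5 called) the count was 6 with replicates 2 and 3 alone and 4 with the 75th percentile shift. It was also 4 with a fit to the lines compared, 1 with the methods' t-test and 3 to 5 with 1 array left out. Over all genes 734 were called higher in the main fit, and 3412, 649, 612 and 296 in these settings in turn. With 1 array left out it was 242 to 1298. The cause of the changes in count was not tested. By gene, the call lost under the most alternatives was PSME1 in T47D-PA6 over T47D-PA5, under 10. In T47D-PA6 over T47D-VC1, ERAP1 was lost under 9 and PSMB10 under 6. Among the tested alternatives with all probes of a gene or its brightest, TAPBP and ERAP2 alone changed sign, both in T47D-PA6 over T47D-PA5 and neither called. Another TAPBP probe was at −0.07 in T47D-PA6 over T47D-VC1 and −0.12 over T47D-PA5, also not called. TAPBP gave −0.023 (log2) with the 75th percentile shift, −0.13 with replicates 2 and 3 alone, −0.00087 with the mean of its probes, and −0.090 to 0.084 with 1 array left out, including −0.021 without T47D-PA6 replicate 1. ERAP2 gave −0.0057 with replicates 2 and 3 alone. On replicate 1 alone, with no test, ERAP1 and TAPBP were at −0.12 and −0.18 in T47D-PA5 over T47D-VC1. The ratios of replacement to constitutive subunits kept their direction in all 3 comparisons under the alternatives run for them.

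With the replicate number as a block (replicate block), 9, 1 and 5 genes were called, and no call of the 10 genes changed. Residuals of same-numbered arrays correlated at 0.10 to 0.34, and 1 pair was under 0.1. The replicate 1 arrays, which share a slide, correlated at 0.21 to 0.34 with each other and at −0.31 to −0.13 with the rest. Residuals were taken from the mean of each line, so positive values among the replicate 1 arrays bring negative values with the rest. Among replicates 2 and 3, arrays of the same number correlated at 0.0995 to 0.24 and arrays of different numbers at 0.10 to 0.26. Those numbers thus gave no sign of pairs.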
